A study of Mus musculus with 14 samples.

Results

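RNA levels after knockdown of METTL3 were compared with those of a scrambled control hairpin (Scram) in mouse embryonic fibroblasts. The comparison uses 4 of the series' 14 libraries, RNA_shMETTL3 replicates 1 and 2 and RNA_Scram replicates 1 and 2, each knockdown library against the Scram library of the same replicate number. All genes with a measured transcript were described: 14241 genes had a value somewhere in the series, and 8657 of them passed the filter and were tested. The cells were of strain C57BL/6J and carry a hairpin in both groups. The remaining libraries are ribosome footprints (Ribo-seq) of the same groups, both assays for knockdown of ABCF1, a ribosome-associated ATPase, and 1 library per assay after the mTOR inhibitor Torin1. Cells in culture were given DMSO or Torin1, and the labels do not say which hairpin libraries received DMSO. Cells were washed and lysed in cycloheximide at 100 µg/ml, ribosomal RNA was removed, and RNA fragments of 40 to 60 nt were sequenced. The labels name no hairpin sequence and no clone. They leave unsaid whether a replicate is a culture of its own, so the p-values here reflect library-to-library spread, which may be technical.

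METTL3 is the catalytic subunit of the complex that methylates adenosines inside messenger RNAs, giving N6-methyladenosine (m6A). METTL14 binds the substrate beside it, WTAP, VIRMA, ZC3H13, CBLL1 and the RBM15 proteins anchor and direct the complex, and FTO and ALKBH5 remove the mark. Reader proteins recognise it: YTHDF2 recruits deadenylases and shortens the life of marked transcripts, while IGF2BP proteins are reported to protect theirs. Loss of the writer can therefore move RNA levels either way, and an RNA level cannot by itself tell synthesis from decay.

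The values are RPKM, read density per transcript length and library depth, here rescaled so that every library has the same median over tested genes (10.05). The spacing of the deposited values gave the depth. Outside Lars2 and Tmem38b, 2 transcripts left out because they took up to 42.04% and 10.81% of the reads in replicate 2 but almost none in replicate 1, the Scram libraries held 1705099 and 2155372 reads and the METTL3 knockdown libraries 1574478 and 694742. The shallowest library, METTL3 knockdown replicate 2, therefore limits every comparison. Libraries with the same replicate number correlated at 0.86 to 0.97 over genes, those with different numbers at 0.64 to 0.72, and replicate 2 files list a transcript from about 5 reads up against 1 read in replicate 1. In replicate 2, 1172 genes were listed in Scram alone and 20 in the knockdown alone. RNA-seq files of replicate 1 list 1.35 or 1.36 transcripts per gene, those of replicate 2 list 1.0, and 1 kept transcript stands for each gene here. A replicate 1 value may therefore hold only part of a gene's reads: Vim was at 86.8 in Scram replicate 1 and 447 in Scram replicate 2. With all listed transcripts summed, the Mettl3 change given below was -0.91. Of 8657 genes tested, 8177 were listed in all 4 libraries. The fibroblast label was checked against 12 markers, of which 10 were tested. Their summed level was 3758 and 3675 in Scram and 3008 and 3279 in the knockdown, while macrophage markers summed to at most 7.72 and endothelial and skeletal muscle markers to at most 1.29 and 0.76. Epithelial markers, mostly keratins, summed to 48.7 to 84.5, Epcam was not listed, and the part of these levels in the results was not tested.

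Mettl3 itself (chromosome 14, 52294841 to 52305128, GRCm38) was at 10.0 RPKM in Scram replicate 1 and 2.90 in the knockdown, and at 5.43 and 4.23 in replicate 2. Both knockdown values lie below both Scram values. In replicate 1 the level was 29.0% of Scram (95% exact counting interval 13.9% to 55.8%, from 44 and 12 reads). In replicate 2 it was 77.8% (33.0% to 164.7%, from 36 and 9 reads), an interval that includes no difference. Such intervals cover counting error only. The mean log2 change was -0.90 (SE 0.34, limma unadjusted p = 0.0394, adjusted p = 0.999). Mettl3 footprints were lower in both replicates, with log2 changes of -2.56 and -1.20 (limma adjusted p = 0.111). The fitted change was -0.41 or -1.38 without Scram replicate 1 or 2, and -0.48 or -1.32 without METTL3 knockdown replicate 1 or 2. The Mettl3 change differed from that after ABCF1 knockdown by -1.23 (limma unadjusted p = 0.0117, adjusted p = 0.356), where its own changes were -0.03 and 0.70.

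The writer complex showed no common direction. Of 8 writer genes tested, 3 were higher in both replicates (Wtap, Cbll1 and Mettl16). Mettl16 is a separate methyltransferase and not part of this complex. In both replicates 4 were lower (Mettl3 itself, Virma, Rbm15 and Zc3h13, the last at -0.45 and -0.01), and Mettl14 was not tested. Wtap, which holds the complex together, was at 16.8 in Scram and 22.1 in the knockdown in replicate 1, and at 17.6 and 28.2 in replicate 2 (log2 change 0.51, SE 0.19, limma unadjusted p = 0.0394). Cbll1, its ubiquitin-ligase-like partner, was likewise higher, at 0.52 and 0.59. Virma and Rbm15, which direct the complex to its sites, were lower by small amounts, at -0.29 and -0.35 and at -0.24 and -0.30. Of the erasers, Fto had log2 changes of -0.21 and -0.27, with counting intervals that include no difference in both replicates. Alkbh5 was level in replicate 1, at 37.5 and 37.4 RPKM, and lower in replicate 2, at 30.0 and 23.9. The kept Mettl16 transcript rests on 1 and 4 reads in replicate 1 and is not read further.

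Of 11 m6A readers tested, 2 were higher and 2 lower in both replicates. Ythdc2, a helicase reader, was the higher one of larger size, at 0.70 and 0.55 (limma unadjusted p = 0.0688). Ythdf2, the decay reader, was at 0.23 and 0.10, within 1 SE of no change (SE 0.20). The RNA stabilisers Igf2bp2 and Igf2bp3 were lower: Igf2bp2 was at 33.6 and 23.0 in replicate 1 and at 21.6 and 14.9 in replicate 2. Igf2bp3 had 103 reads in Scram and 49 in the knockdown in replicate 1, and 48 reads against no listing in replicate 2. Ythdf1 and Ythdf3 were not tested. Among 5 mRNAs tied to m6A by published work, Socs3 and Foxm1 were higher and Atf4 and Ccnd1 lower in both replicates.

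Across all genes no RNA change passed the test. With limma, the replicate number as a block and 6 libraries in the fit, 0 of 8657 genes (0%) had an adjusted p under 0.05, and 362 (4.18%) had an unadjusted p under 0.05, of which 150 were higher and 212 lower. Without the block 0 genes passed and 70 had an unadjusted p under 0.05. With the 4 METTL3 and Scram libraries alone 0 passed, 585 had an unadjusted p under 0.05, and the lowest adjusted p was 0.569. The typical SE of a change was 0.27 on the log2 scale, with 2 residual degrees of freedom. Even Vcam1, at -1.89, and Acta2, at -1.42 (SE 0.18), had a limma adjusted p of 0.999. At this depth and replication the lack of calls therefore does not show that RNA changes, small or large, were absent. Below, a gene is therefore described by its value in each library, and "higher" or "lower in both replicates" names a direction, not a call. By direction, 2375 genes (27.4%) were higher and 2281 (26.3%) lower in both replicates, and these shares are the background for every list. Over genes listed in all 4 libraries the shares were 28.5% and 25%. Over 1.5-fold in both replicates, 81 genes (0.936%) were higher and 172 (1.99%) lower, and 69 of the 172 were not listed in METTL3 knockdown replicate 2.

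**Figure D1:**
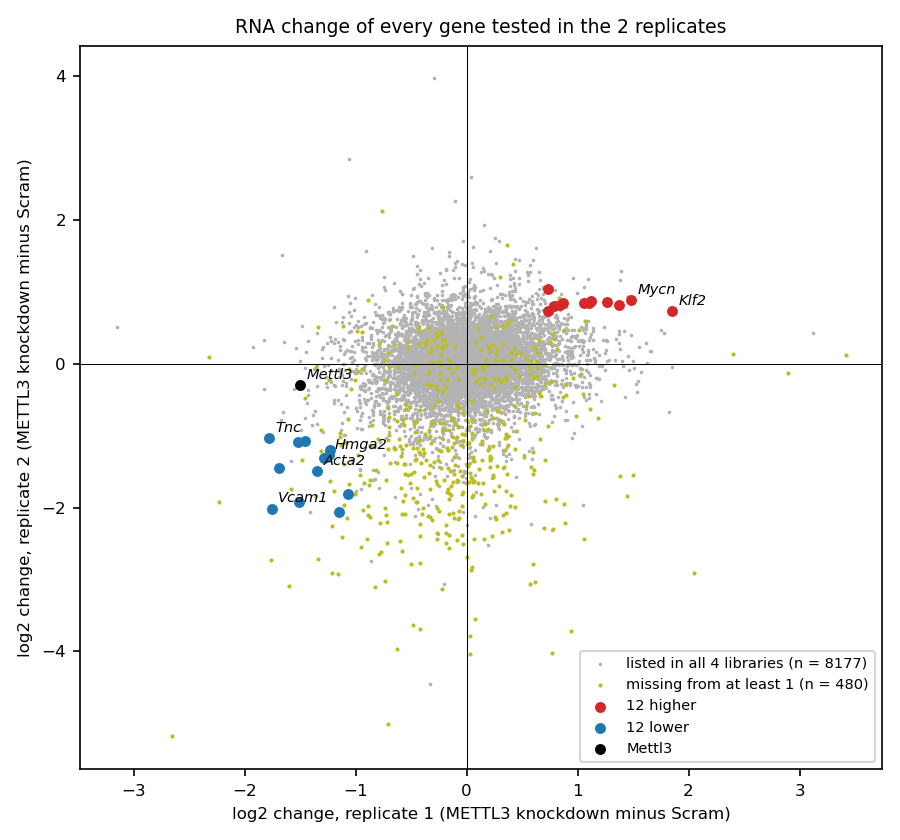
Log2 RNA change (METTL3 knockdown minus Scram) of each of the 8657 genes tested, replicate 1 on the x axis and replicate 2 on the y axis. Grey genes are listed in all 4 libraries (8177), olive genes are missing from at least 1 and lie mostly below 0 in replicate 2, and the named higher genes (red), lower genes (blue) and Mettl3 (black) stand at the edges of the cloud.

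The 2 replicates shared little of their change. Across the 8657 genes the replicate changes had a Pearson r of 0.157 and a Spearman rho of 0.134, and 53.78% of genes moved the same way. Among the 484 genes with at least 200 reads in all 4 libraries r was 0.261 and 56.4% moved the same way. These are correlations across genes within the same libraries and genes are not independent replicates. The SD of the changes was 0.44 in replicate 1 and 0.55 in replicate 2.

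The genes that were lower by the most in both replicates encode cell surface, matrix and cytoskeletal proteins as well as regulators. They were ranked by the smaller of their 2 replicate changes among genes listed in all 4 libraries with at least 20 reads in the higher library of each pair. The last gene inside the 12 was Tnc, with a smaller change of 1.04 in size, and the first outside was Etv5 at 1.03. Because these values chose the genes, they are given as a description. In bulk RNA, fewer cells of a type and less RNA per cell cannot be told apart.

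Acta2, smooth muscle actin and the standard marker of contractile myofibroblasts, is the best measured of the 12 (chromosome 19, 34241090 to 34255590). It was at 628 RPKM in Scram and 247 in the knockdown in replicate 1, and at 631 and 223 in replicate 2. The knockdown libraries agree closely, at 39.3% of Scram (36.5% to 42.2%) and 35.3% (32.0% to 38.8%), and the groups do not overlap. The log2 change was -1.42 (SE 0.18, limma unadjusted p = 0.000266, adjusted p = 0.999), the lowest unadjusted p of all genes. Over every alternative run the Acta2 change stayed between -1.52 and -1.31.

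Vcam1, an adhesion molecule that binds leukocyte integrins and is induced by NF-kB, had the largest fitted change of the 12 (chromosome 3, 116109949 to 116129688). Its level was 44.2 in Scram and 12.4 in the knockdown in replicate 1, and 29.7 and 6.58 in replicate 2, so both knockdown libraries are below both Scram libraries. The knockdown held 28.1% (21.9% to 35.6%) and 22.2% (14% to 33.6%) of the Scram level. Mcam, another adhesion molecule, was at 24.2 and 9.33 in replicate 1 and at 26.0 and 9.87 in replicate 2. Antxr1, a collagen-binding receptor also used by anthrax toxin, was at 13.6 and 5.22, then at 3.78 and 1.09, with 6 reads in the last library, and its knockdown value of replicate 1 lies above its Scram value of replicate 2.

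Among matrix and protease genes, Fmod, a small proteoglycan that binds collagen fibrils, was at 19.9 in Scram and 5.49 in the knockdown in replicate 1 and at 9.21 and 2.74 in replicate 2. Tnc, the matricellular protein tenascin C, was at 25.6 and 6.75, then at 4.34 and 1.61. For Tnc the knockdown value of replicate 1 is above the Scram value of replicate 2, so the groups overlap although each pair shows a lower level. Plau, the urokinase plasminogen activator, was at 8.65 and 3.34, then at 15.0 and 2.84. The fitted change was -0.89 for Tnc without Scram replicate 1, and -0.98 for Plau without Scram replicate 2, against -1.41 and -1.61.

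Of the regulators, Hmga2 (chromosome 10, 120361275 to 120476469), a chromatin architecture factor of embryonic cells and a classical let-7 target, was at 29.6 and 11.9 in replicate 1 and at 14.1 and 5.24 in replicate 2. That is 40.3% (31.4% to 51.4%) and 37.2% (22.4% to 58.6%) of Scram. Creb3l1, a transcription factor released from the endoplasmic reticulum membrane that drives collagen genes, was at 14.7 and 4.51, then at 12.6 and 2.56. Osgin1, induced by oxidative stress, was at 6.21 and 2.44, then at 15.8 and 3.80, replicate changes of -1.07 and -1.81. Its log2 change of -1.44 had the widest error of the 12 (SE 0.71). That SE is from the fit over 6 libraries, in which Osgin1 was at 8.77 and 117 in ABCF1 knockdown replicates 1 and 2. The fitted Osgin1 change was -2.40 or -0.48 without METTL3 knockdown replicate 1 or 2, and the ABCF1 knockdown values enter it through the replicate block. The lipid hydrolase gene Abhd2 stood at 34.4% and 44.9% of Scram and Arpc1a, a subunit of the actin-branching Arp2/3 complex, at 33.7% and 45.8%.

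The 12 genes that were higher in both replicates moved by less, with mean log2 changes of 0.73 to 1.29 against -1.21 to -1.89 for the lower ones. The minimum of 20 reads fell on the knockdown libraries for higher genes and on the Scram libraries for lower genes. In replicate 2 these held 694742 and 2155372 reads, so the rule was stricter for higher genes. Its part in the difference in size was not tested. Mycn, a MYC-family transcription factor, was at 6.04 in Scram and 18.7 in the knockdown in replicate 1, and at 7.43 and 14.6 in replicate 2. Both knockdown libraries are above both Scram libraries, at 309% (209% to 468%) and 196% (130% to 295%) of Scram. Vdr, the vitamin D receptor, was at 9.60 and 18.4, then at 7.41 and 14.2. Pnpla8, a membrane phospholipase, was at 2.75 and 8.0, then at 2.69 and 5.68. Alcam, an adhesion molecule of the same superfamily as Vcam1 and Mcam, went the other way from them, at 7.56 and 17.7, then at 4.35 and 8.83.

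Fam126a, a scaffold of the lipid kinase complex at the plasma membrane, was at 11.1 and 30.4 in replicate 1 and at 17.7 and 31.8 in replicate 2. Stk26, a kinase of cell polarity, was at 24.1 and 42.2, then at 14.5 and 26.1, with the lowest knockdown value above the highest Scram value. Wrnip1, an ATPase at replication forks, was at 8.23 and 18.8, then at 15.3 and 28.2. Gnai1, an inhibitory G protein subunit, the mitochondrial ribosomal protein gene Mrpl44, the LIM protein gene Crip2 and the histone gene Hist1h3g stood at 169% to 221% of Scram. Histone genes have near-identical copies, so the value of Hist1h3g alone is uncertain. Gnai1 groups overlap, with 12.2 in Scram replicate 1 above 8.80 in knockdown replicate 2. Klf2, a flow-responsive transcription factor, was the last of the 12, with a smaller change of 0.73 against 0.71 for Xrcc2 outside. Klf2 was at 6.24 and 25.2, then at 16.7 and 28.3 (log2 change 1.29, SE 1.13), and its fitted change was -0.25 without Scram replicate 1 and 1.98 without METTL3 knockdown replicate 1. The SE and these fits also include Klf2 at 12.8 in ABCF1 knockdown replicate 1 and at 0, as not listed, in replicate 2. The fitted change of Fam126a was 0.58 without Scram replicate 1, against 1.09, and that of Gnai1 0.59 without METTL3 knockdown replicate 1, against 0.95.

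**Figure D2:**
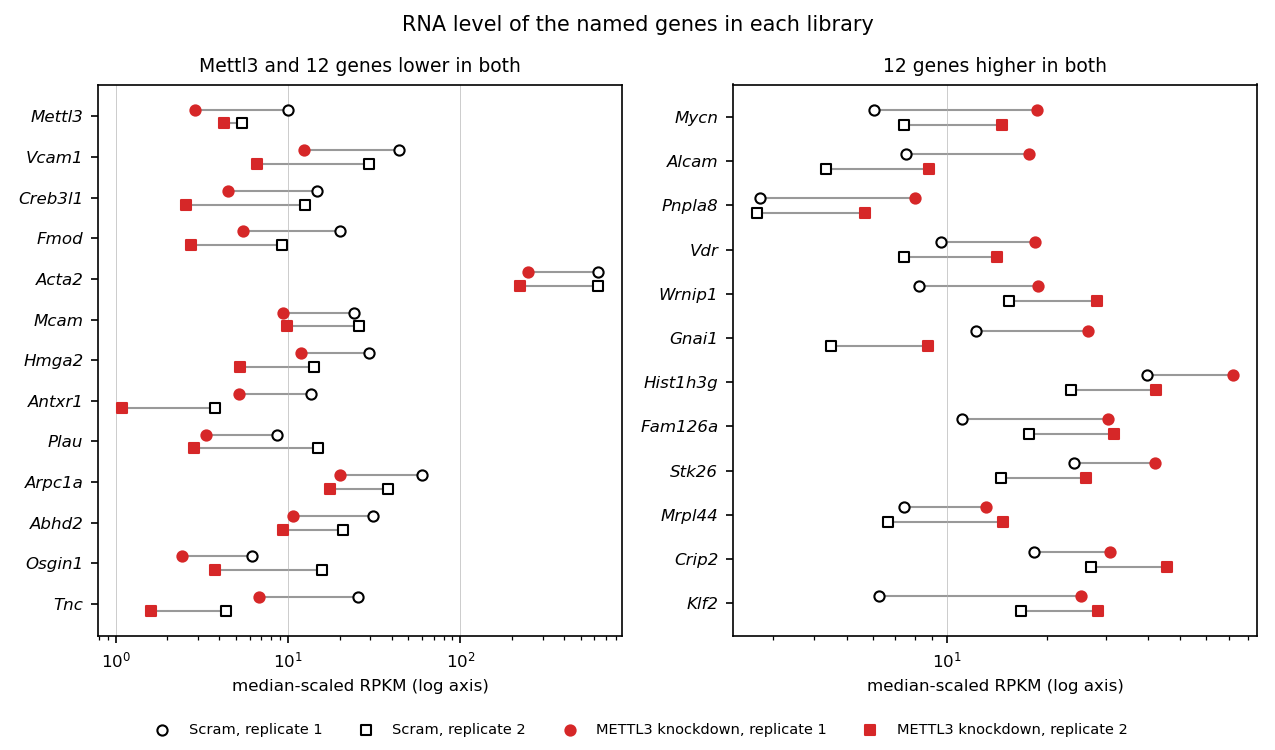
Median-scaled RPKM (log axis) of Mettl3, the 12 lower and the 12 higher genes in each library, Scram open and METTL3 knockdown filled, replicate 1 as circles and replicate 2 as squares, with lines joining the libraries compared. Every line of the left panel runs to a lower and every line of the right panel to a higher knockdown value, with Acta2 from 628 to 247 and from 631 to 223.

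Ribosome footprints were sequenced in separate libraries of the same groups and were not used to choose these genes, although the labels do not say whether both assays shared lysates. All 12 lower genes had footprint values, and 11 were lower in both footprint replicates, the exception being Fmod at -1.08 and 0.13. Across the genes tested in Ribo-seq 25.7% were lower and 31.7% higher in both. Hmga2 footprints were at -2.68 and -2.82 (limma adjusted p = 0.0137), farther from 0 than its RNA changes of -1.24 and -1.28. Vcam1 footprints were at -1.86 and -2.38 (limma adjusted p = 0.0427), close to its RNA changes of -1.75 and -2.02. No footprint change passed without the replicate block (lowest adjusted p = 0.999), and 1 passed at a pseudocount of 0.1. Plau, at -2.17 and -1.88, and Abhd2, at -1.55 and -1.37, missed the threshold (limma adjusted p = 0.0862 and 0.0723). Of the 12 higher genes 11 had footprint values, and 8 were higher and 0 lower in both. Fam126a footprints were at 1.79 and 1.64 and those of Vdr at 1.39 and 1.35, while Mrpl44, Hist1h3g and Klf2 split between replicates and Mycn was at 0.00 and 1.25.

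The 7 footprint changes that passed (0.079% of 8856 genes) included Hmga2, Vcam1, Capg, Angptl7, Mustn1 and Tmem255b, of which the last 2 were not tested in RNA. RNA of Capg, an actin-capping protein gene, was at -0.94 and -0.69 (limma unadjusted p = 0.161) against footprints of -3.15 and -3.05. RNA and footprints of Angptl7, a secreted angiopoietin-like protein gene, were both higher, at 1.14 and 0.45 and at 2.04 and 2.35. The number that passed rests on single Ribo-seq libraries: it was 279 and 372 without Scram replicate 1 or 2, 3 and 0 without METTL3 knockdown replicate 1 or 2, and 2 and 9 without ABCF1 knockdown replicate 1 or 2. Of the 81 genes over 1.5-fold higher in RNA, 72 had footprints and 47 of them (65.3%) were higher in both footprint replicates. Of the 172 lower genes, 163 had footprints and 106 (65.0%) were lower in both. Over all 8051 genes with both values the RNA and footprint changes had a Spearman rho of 0.354, a description across genes.

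**Figure D3:**
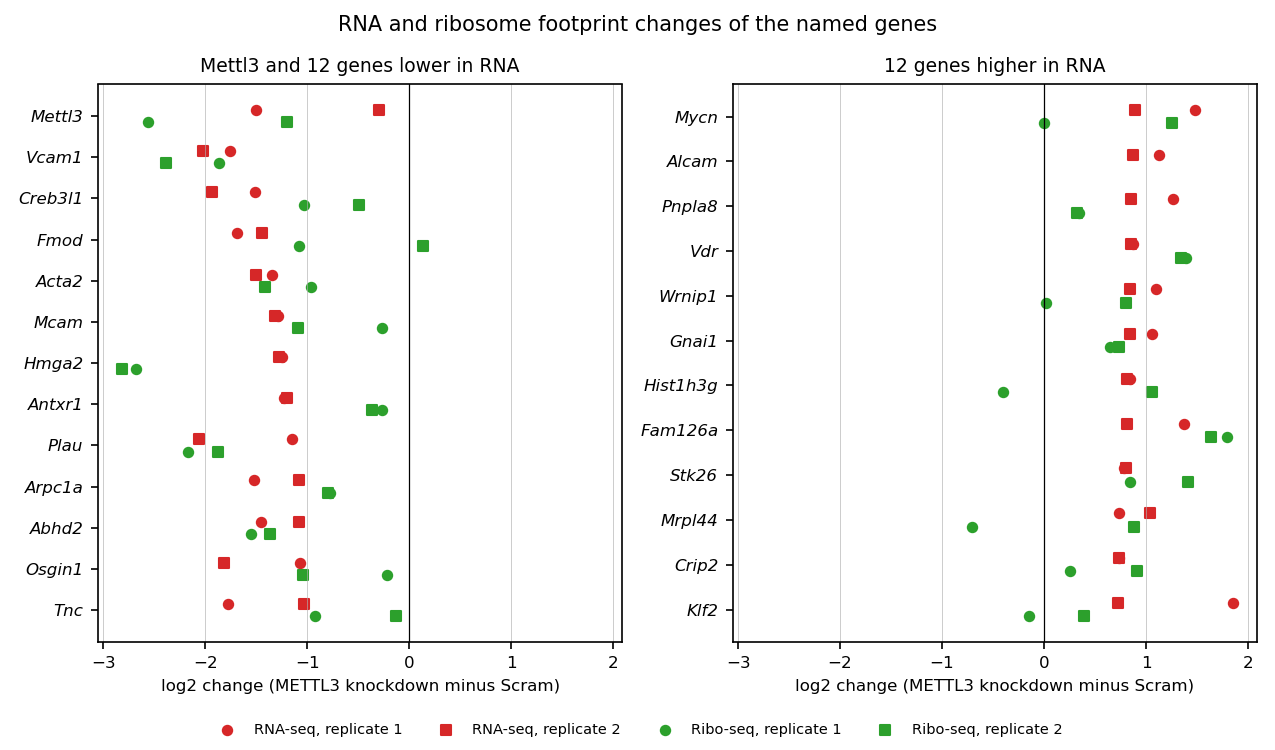
Log2 change (METTL3 knockdown minus Scram, x axis) of Mettl3, the 12 lower and the 12 higher genes in RNA-seq (red) and Ribo-seq (green), replicate 1 as circles and replicate 2 as squares. Footprints of 11 of 12 lower genes are below 0 in both replicates, with Hmga2 farthest at -2.68 and -2.82, and Alcam has no footprint value.

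ABCF1 knockdown was compared with the same Scram libraries, so its changes share their error with those of METTL3. Values are set side by side, and only the direct contrast of the 2 knockdowns is tested. In that contrast 0 genes passed with limma (lowest adjusted p = 0.273) and 1063 (12.3%) had an unadjusted p under 0.05. It was 177 genes without ABCF1 knockdown replicate 1, 18 without replicate 2, and 0 without each of the other 4 libraries. The genes named above were chosen for their METTL3 knockdown values, which enter this contrast, so no count of its p-values over them is given. Acta2 was at -0.44 and -0.68 after ABCF1 knockdown, and Hmga2 at -0.31 and 0.09. Mycn was at -0.20 and -0.76, Alcam at -1.43 and -0.87 and Vdr at -0.04 and -0.65, against values above 0 in both replicates after METTL3 knockdown. Tnc, at -1.78 and -0.48, Creb3l1, at -1.32 and -1.01, and Pnpla8, at 1.04 and 0.23, had the same sign after both knockdowns. So did Acta2, Vcam1 (-0.51 and -1.55), Mcam (-0.63 and -0.37), Fmod (-0.41 and -0.59) and Hist1h3g (0.21 and 0.54). The sign was also shared by Abhd2 (-0.04 and -0.25), Arpc1a (-0.46 and -0.02) and Mrpl44 (0.05 and 0.58), each near 0 in 1 replicate after ABCF1 knockdown. Hmga2, Plau and Antxr1 split between replicates, and Osgin1 was higher, at 0.44 and 2.81. Median changes after ABCF1 knockdown were -0.42 and -0.42 over the 12 lower genes and 0.115 and -0.415 over the 12 higher ones.

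Genes of the contractile apparatus were low together. Serum response factor (SRF), with its actin-sensing cofactors, drives genes of the actin cytoskeleton and its anchors in fibroblasts. Of 17 targets tested, 14 were lower and 0 higher in both replicates, against backgrounds of 26.3% and 27.4%. All 17 were listed in all 4 libraries, so the count is the same there, and their median change was -0.26 and -0.35 against -0.01 and 0.02 over all genes. No member passed the test. The summed fibroblast markers were also lower in the knockdown, as given above, and their part in this was not tested. After ABCF1 knockdown the median of the same genes was -0.44 and -0.54.

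After Acta2, the targets with the largest smaller change of the 2 replicates were Tagln and Filip1l. Tagln, an actin-binding protein of smooth muscle, was at 124 and 79.6 in replicate 1 and at 305 and 160 in replicate 2. Its log2 change was -0.78 (SE 0.19, limma unadjusted p = 0.00773, adjusted p = 0.999). Filip1l, a filamin-interacting protein, was at 24.9 and 16.4, then at 10.6 and 5.98. Itga5, the fibronectin receptor subunit, had changes of -0.49 and -1.09, Srf itself of -0.29 and -1.03, and Vcl, the focal adhesion protein vinculin, of -0.38 and -0.49. Myh9, the non-muscle myosin heavy chain, moved less, at -0.27 and -0.14. Tpm1 and the adhesion protein Zyx split between replicates, as did Cald1, and the kept transcripts of Tpm2 and Flna had under 10 reads in replicate 1. Footprints of these targets were lower in both replicates for 9 of the 16 with values and higher in both for 2.

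SRF binds the CArG box, and the promoters are shown because these members were low together. Sequences are from RefSeq (GRCm38.p6), 250 bases before to 50 after the start site, 5′ to 3′ on the gene's strand, with exact CArG boxes in capitals. The motif has CC, then 6 bases that are each A or T, then GG, and reads as itself on the other strand. Of 16 targets with a promoter in the table, 5 held one (Cnn2, Fermt2, Filip1l, Srf and Vcl), or 31.2%, against 1.81% of 27025 genes with a promoter. The list was made of SRF targets, so this share describes the list and says nothing of the knockdown.
Srf, chr17:46556113-46556412, minus strand, boxes beginning 82 and 62 bases before the start: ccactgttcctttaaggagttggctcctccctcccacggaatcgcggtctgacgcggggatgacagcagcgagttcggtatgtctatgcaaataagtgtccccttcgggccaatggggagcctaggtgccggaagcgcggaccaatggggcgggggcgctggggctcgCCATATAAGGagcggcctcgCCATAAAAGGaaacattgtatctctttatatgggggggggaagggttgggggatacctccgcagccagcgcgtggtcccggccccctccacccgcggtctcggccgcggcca
Vcl, chr14:20929148-20929447, plus strand, 1 box beginning 227 bases before the start: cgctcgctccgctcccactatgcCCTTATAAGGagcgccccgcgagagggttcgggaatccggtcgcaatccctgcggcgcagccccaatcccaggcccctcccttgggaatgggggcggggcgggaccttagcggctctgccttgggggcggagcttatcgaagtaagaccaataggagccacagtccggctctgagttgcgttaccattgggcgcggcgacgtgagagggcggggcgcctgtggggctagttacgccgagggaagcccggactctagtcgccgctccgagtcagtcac
Acta2, chr19:34255324-34255623, minus strand, no exact box in this window: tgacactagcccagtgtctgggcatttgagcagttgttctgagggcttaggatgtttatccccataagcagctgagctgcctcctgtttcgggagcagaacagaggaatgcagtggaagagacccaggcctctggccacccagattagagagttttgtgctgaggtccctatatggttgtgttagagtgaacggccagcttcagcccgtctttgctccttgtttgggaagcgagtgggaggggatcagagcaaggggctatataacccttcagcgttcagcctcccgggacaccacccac
Among the 12 lower genes 8 had a promoter in the table and among the 12 higher genes 11, and 0 of either held an exact box. The search was for exact boxes only. The Acta2 window holds ccctatatgg and ccttgtttgg, each 1 base away from the motif, so lack of an exact box does not show lack of SRF sites.

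Inflammatory genes driven by NF-kB, the transcription factor of cytokine and stress signalling, were lower in both replicates for 12 of 17 tested and higher for 1. Over all genes the shares were 26.3% and 27.4%. The size differed between replicates, with medians of -0.33 in replicate 1 and -1.09 in replicate 2. Vcam1 was the only member beyond 1 log2 unit in both. Cxcl1, a neutrophil chemokine, was at 81.7 and 46.7 in replicate 1 and at 112 and 32.9 in replicate 2. Rel, an NF-kB subunit, was at 3.83 and 2.36, then at 4.34 and 1.53. Ptgs2, the inducible cyclooxygenase, differed most between replicates: its change was -0.33 in replicate 1 and -4.46 in replicate 2, where reads went from 1126 in Scram to 12. Ccl2, a monocyte chemokine, was at -0.03 and -1.52. After ABCF1 knockdown the list had medians of -0.01 and -1.04, that is, lower in the same replicate against the same Scram library.

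Immediate early genes and sterol genes showed the replicate 2 shift without the replicate 1 one. Of 23 immediate early genes, the transcription factors and phosphatases that serum induces within minutes, 20 were lower in replicate 2 and 5 in replicate 1. Their medians were 0.22 in replicate 1 and -1.31 in replicate 2, and 0.55 and -1.30 after ABCF1 knockdown. Fosl1, an AP-1 subunit, was at -0.20 and -3.06, Dusp6, a phosphatase that limits ERK, at 0.22 and -2.15, and Junb at 0.00 and -2.25. Of 20 genes of sterol synthesis and uptake, all 20 were lower in replicate 2 (Ebp barely so) and 7 in replicate 1, with medians of 0.05 and -0.86. Insig1, which retains the sterol sensor, was at 1.04 and -1.97. Fdft1 and Sqle, which make squalene and its epoxide, were lower in both, at -0.51 and -0.91 and at -0.33 and -0.95. The same list had medians of -0.14 and -1.06 after ABCF1 knockdown. Both knockdowns use Scram replicate 2, and its part in the shift was not tested.

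**Figure D4:**
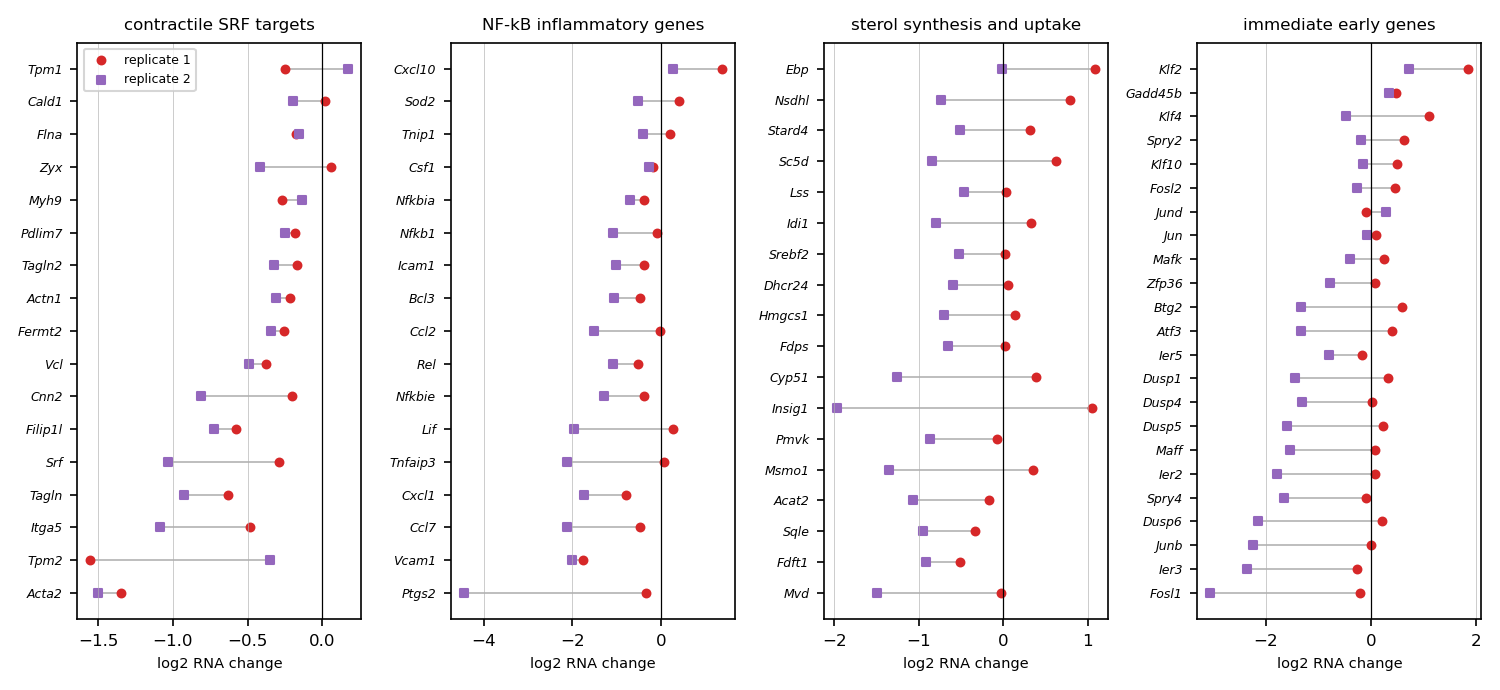
Log2 RNA change (METTL3 knockdown minus Scram, x axis) of the tested members of 4 gene lists that are reported here, replicate 1 as red circles and replicate 2 as purple squares, ordered by mean change. Contractile genes lie left of 0 in both replicates for 14 of 17, whereas sterol and immediate early genes lie left of 0 mainly in replicate 2.

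Hmga2 belongs to a short list of architecture factors and oncofetal genes, of which 4 of 10 were tested. All 4 were lower in replicate 1, and 3 were lower in both. Igf2bp1 was level at -0.04 and 0.03, while Igf2bp2 and Igf2bp3 were lower as given above. Footprints of all 4 were lower in both replicates, from -0.24 and -0.81 for Igf2bp2 to the values of Hmga2. After ABCF1 knockdown Igf2bp2 was at -0.10 and 0.53 (limma unadjusted p = 0.0211 for the difference, adjusted p = 0.363).

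Histone genes were mostly higher in RNA, while DNA replication genes leaned higher in replicate 2 alone. Replication-dependent histones, made without a poly(A) tail to package new DNA, were higher in both replicates for 26 of 48 tested and lower for 2, against 27.4% and 26.3%. Their medians were 0.33 and 0.22, and 0.10 and -0.14 after ABCF1 knockdown. Hist1h4d went from 327 to 808 reads in replicate 1, a log2 change of 1.38, and was at 0.20 in replicate 2. Hist1h2ac was at 0.69 and 0.31 and Hist1h4f at 0.43 and 0.29. Near-identical copies make the value of any single histone gene uncertain, and footprints were higher in both for 12 and lower for 11. DNA replication genes were higher in both replicates for 16 of 39 and lower for 3, with medians of 0.00 and 0.21, and 20 of the 39 were lower in replicate 1. Their footprints were higher in both for 9 and lower in both for 8. Gins1, a subunit of the replicative helicase, was at 11.9 and 17.1, then at 12.6 and 17.5. Rrm1, of ribonucleotide reductase, was at 0.38 and 0.13, and Tk1, thymidine kinase, at 0.24 and 0.63. Of 31 genes of G2 and mitosis 8 were higher and 1 lower in both, but the medians had opposite signs, at -0.16 and 0.33. Ect2, which positions the cleavage furrow, was at 41.1 and 64.1, then at 32.0 and 42.6.

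Matrix genes had no single direction in RNA. Of 14 collagen chains 5 were higher and 7 lower in both replicates, against 27.4% and 26.3% over all genes, with medians of -0.01 and -0.04. Their footprints were higher in both for 9 and lower for 2, against 31.7% and 25.7% over all genes in Ribo-seq. Col1a1, the main chain of fibrillar collagen I, was at 939 and 904 in replicate 1 and at 1265 and 1240 in replicate 2. Its partner Col1a2 was at 577 and 294, then at 597 and 422, while its footprints split at -0.44 and 1.12. The log2 RNA change of Col1a2 was -0.74 (SE 0.23, limma unadjusted p = 0.0215, adjusted p = 0.999). Col5a2 was higher at 0.41 and 0.38, with footprints of 0.91 and 1.54. Of 22 matrix glycoproteins and protease inhibitors 5 were higher and 11 lower. Nid2, a basement membrane linker, was at 57.0 and 95.6, then at 62.6 and 85.9, with footprints also higher at 1.18 and 1.38. Timp3, an inhibitor of metalloproteinases, was at 0.95 and 0.38. Loxl1, which crosslinks elastin, was at 1.08 and 0.48, with footprints of 1.29 and 0.80. Ankrd1, a YAP-responsive gene of mechanical load, was lower at 58.8 and 31.9, then at 143 and 20.5, while Lats2, the kinase that restrains YAP, was higher at 0.82 and 0.54. Of the 13 YAP and TGF-beta responsive genes 3 were higher and 3 lower in both.

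Metabolic and stress lists are given beside the shares over all genes, 27.4% higher and 26.3% lower in both replicates. Several of the counts lie near these shares, and none was tested. Of 21 glycolysis and hypoxia genes 10 were lower and 2 higher in both replicates. Ndrg1, a hypoxia-induced gene named because its change was the largest, was at 19.6 and 10.5, then at 42.7 and 13.2. Its log2 change was -1.23 (SE 0.28, limma unadjusted p = 0.00543, adjusted p = 0.999), with footprints of -0.97 and -1.68. The glucose transporter gene Slc2a1 was at -0.44 and -1.05, whereas Gapdh was at 0.00 and -0.03. Of 33 genes of the ATF4 amino acid response 15 were lower and 4 higher, among them the serine synthesis gene Psat1 at -0.37 and -0.56, and 12 of 29 were lower when genes missing from a library were left out. Lysosome and autophagy genes were lower for 10 and higher for 7 of 23, with the protease gene Ctsb at -0.64 and -0.52. Proteasome subunits were higher for 15 and lower for 4 of 34, and mitochondrial ribosomal proteins higher for 25 and lower for 10 of 72. Cytosolic ribosomal proteins split at 18 higher and 15 lower of 69, and nuclear genes of oxidative phosphorylation at 21 and 14 of 68. The 9 mitochondrially encoded genes had medians of 0.97 in replicate 1 and -0.11 in replicate 2, and of 1.61 and -0.18 after ABCF1 knockdown. Of 21 interferon genes 6 were higher and 8 lower, of 16 p53 targets 2 and 6, of 27 deadenylation and decapping genes 8 and 7, of 18 endoplasmic reticulum chaperones 3 and 3, and of 19 heat shock chaperones 2 and 4. Initiation factors were higher for 9 and lower for 7 of 32, elongation factors and other TOP genes for 3 and 4 of 18, and collagen modifying enzymes for 2 and 7 of 15.

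**Figure D5:**
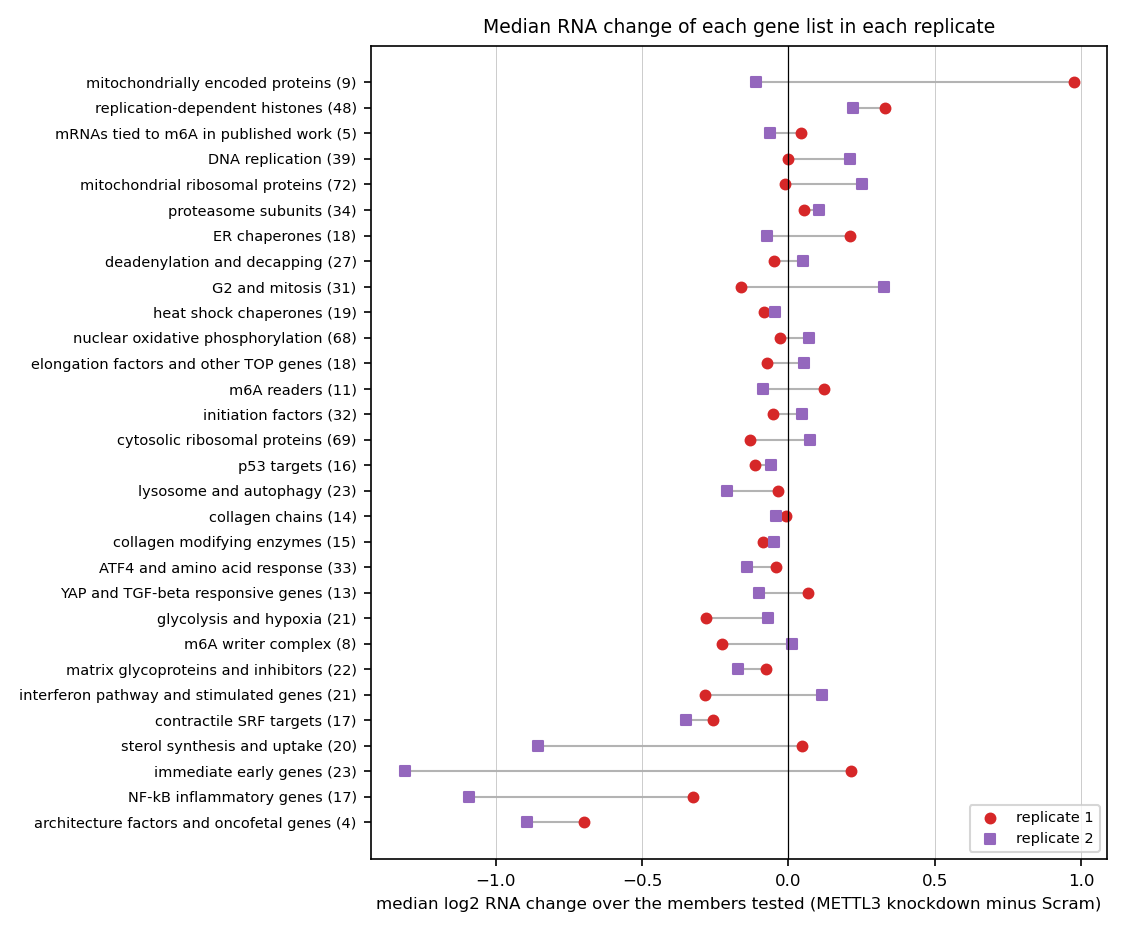
Median log2 RNA change (METTL3 knockdown minus Scram, x axis) of each list in replicate 1 (red circles) and replicate 2 (purple squares), with the number of members tested in parentheses. Contractile genes (-0.26 and -0.35) and histones (0.33 and 0.22) have the same sign in both replicates, while immediate early genes run from 0.22 to -1.31.

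RNA change was also set against features of the kept transcript, since METTL3 methylates adenosines in short motifs of the GGAC kind and m6A is densest in long exons and near stop codons. Each transcript was searched on its sense strand for GGAC, of which GGACT is a part. The number of GGAC per kilobase had a Spearman rho with the RNA change of -0.089 in replicate 1 and 0.042 in replicate 2, and GGACT per kilobase of -0.052 and -0.005. From the fifth of genes with the fewest GGAC (median 2.22 per kilobase) to the fifth with the most (6.79), the median change ran from 0.06 to -0.03 in replicate 1 and from -0.01 to 0.05 in replicate 2. The 2 replicates ran in opposite directions. The total number of GGAC had the same sign in both, at -0.092 and -0.087. After ABCF1 knockdown the total number was at -0.047 and 0.043. There GGAC per kilobase, at -0.078 and -0.052, and GGACT per kilobase, at -0.04 and -0.015, were below 0 in both replicates. For METTL3 knockdown, transcript length was at -0.035 and -0.124 and the longest exon at 0.053 and -0.108. Exons per kilobase were at -0.103 and 0.046 and GC content at -0.103 and 0.061. These are weak values across 8657 genes that share libraries and base composition, and are given with no test. The 12 lower genes had a median of 4.11 GGAC per kilobase and the 12 higher ones 4.89, against 4.16 over all genes. Single members ranged widely in both sets, with 8.07 per kilobase in Creb3l1 and 2.13 in Plau among the lower genes, and 6.84 in Wrnip1 and 1.10 in Stk26 among the higher ones. Which of these motifs carry m6A was not measured in these libraries.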

How the data were processed

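Per the submitters' processing notes, the authors trimmed reads with cutadapt and mapped them with Bowtie to GRCm38. The sources used here do not give versions, the annotation release, the strand setting or the handling of reads with several positions. The deposited values are RPKM per Ensembl transcript. They are whole multiples of 1 read, within 0.02 of a read, for 80.5% to 85.4% of RNA-seq values over transcript length, which gives depths of 1342758 to 3802703 reads in the 4 libraries compared.

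GENCODE M21 held 22356 of the 22453 transcript identifiers, and 1 transcript was kept per gene. A transcript absent from a file was set to 0, which may reflect a low level or a listing under a different transcript of the gene. Lars2 and Tmem38b were left out. A gene was tested if 2 or more of the 3 libraries of each replicate number listed it and its mean RPKM was 1 or more. Libraries were scaled to a common median, and log2(RPKM + 1) was fitted with limma 3.58.1 in R 4.3.3 (eBayes with trend) over Scram, METTL3 and ABCF1 knockdown with the replicate number as a block. A log2 change on this scale understates the change of genes at low levels. Adjusted p-values are Benjamini-Hochberg over all genes tested, with a threshold of 0.05. Footprints were fitted in the same way over 8856 genes. The block rests on the correlation of same-numbered libraries' deviations from their group means, 0.77 to 0.87 for RNA and 0.82 to 0.88 for footprints. The fit was also run on simulated data with known changes and independent normal noise, which did not model unlisted transcripts or differences in depth.

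Genes named are Mettl3, the 12 highest and 12 lowest by the rule given with them, up to 3 members of each list that moved the same way in both replicates, and the m6A writers, erasers and readers. Values of 3 genes are not reported here. Further members named beside them were chosen after their values were seen. The genes, lists and rules were chosen with earlier results of these data known. Alternatives were the block, the libraries in the fit, the pseudocount, the filter, the scaling, the summing of transcripts and leaving out each library. Torin1 libraries entered only the fit over all 7 RNA-seq libraries. Intervals on a percent of Scram are 95% Clopper-Pearson intervals on the read counts.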

Additional observations from a re-analysis of the deposited data

How the results depend on the processing

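No alternative gave a METTL3 RNA change that passed the test, and the lowest adjusted p over them was 0.11, without ABCF1 knockdown replicate 2. The number at an unadjusted p under 0.05 was 70 without the replicate block, 585 with the 4 METTL3 and Scram libraries alone, 213 without METTL3 knockdown replicate 2, 565 and 656 without ABCF1 knockdown replicate 1 or 2, and 292 to 386 without each of the other 3 libraries, against 362. In the contrast of the 2 knockdowns, leaving out 1 library gave 0 to 177 genes against 0, and without the replicate block 0. For footprints, 0 genes passed without the replicate block and 1 at a pseudocount of 0.1, against 7, and leaving out 1 library gave 0 to 372. The block changed no other call. Of 2341 fitted changes of named genes under an alternative, 2194 moved by less than the SE of the main fit. The other 147 moved by more, mostly with a library left out or a pseudocount of 5. Klf2 changed sign without Scram replicate 1, to -0.25. That fit includes, through the replicate block, a Klf2 value of 0 in ABCF1 knockdown replicate 2, where Klf2 was not listed. The part of that value in the sign was not tested. Mettl3 ranged from -1.38 to -0.41. Of 434 list medians 383 were classed as unchanged and 51 as moved. The contractile median of -0.30 was -0.40 at a pseudocount of 0.1. Without scaling, the median of all genes was 0.014 in replicate 1 and -0.10 in replicate 2. Counting only genes listed in all 4 libraries, an alternative added after seeing the data, gave 14 of 17 contractile and 12 of 17 NF-kB genes lower in both replicates and 25 of 46 histones higher, against 26 of 48. The 694742 reads of METTL3 knockdown replicate 2 set the depth limit: 1172 genes listed in Scram replicate 2 were not listed there.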
